A study of Sus scrofa with 22 samples.

Results

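Skeletal muscle of newborn pigs was compared with that of late fetuses, using 12 of the 22 samples of a developmental series. The 12 are the 6 samples labelled 1 dpn (1 day after birth) and the 6 labelled 94 dpc (94 days after conception), and the other 10 are older animals at 28 dpn (6) and 188 dpn (4). All were offspring of German Landrace gilts fed an adequate protein (AP) diet in gestation, so both stages share the breed and the maternal diet and no other diet is compared here. The offspring of 3 gilts were collected per stage. With 6 animals from 3 gilts, some animals of a stage shared a mother. No label ties an animal to its gilt or gives its sex, and p-values treat the animals of a stage as independent. RNA of each animal was hybridised to 1 Affymetrix porcine array, and the values are signals per probe set (a group of short probes for 1 transcript).

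The labels of the samples give the tissue as liver, while the title of the series gives muscle. The signals were those of skeletal muscle: the 6 measured of 7 muscle markers (CKM, MYLPF, MYH2, TNNT3, DES and RYR1) summed to 129743 to 165942 per array at 94 dpc and 168449 to 216521 at 1 dpn. The 8 hepatocyte markers summed to 7666 to 51181 at 94 dpc and 2149 to 8534 at 1 dpn, and albumin, the defining hepatocyte transcript, did not exceed 929 on any of these arrays. No muscle is named in the labels.

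Late gestation is the time when fetal muscle stops adding fibres and its precursor cells leave the cell cycle or become quiescent satellite cells. Around birth, fibres replace embryonic contractile proteins by postnatal ones, and muscle takes over posture, breathing and, in the piglet, which has almost no brown fat, heat production by shivering. A surge of cortisol before birth and a switch from placental glucose to milk fat are also known at this time. Birth itself, first feeding and the days of growth between the stages cannot be told apart with these samples.

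The 12 arrays differed in more than stage. Each array carries control probe sets at the 5' and the 3' end of the same RNA, and the log2 ratio of 5' to 3' signal falls when labelled copies are short. For GAPDH the ratio was 0.14 to 0.32 on the 94 dpc arrays, 0.19 and 0.20 on 1 dpn replicates 1 and 6, and -2.84 to -1.59 on 1 dpn replicates 2 to 5. The same 4 arrays stood apart in bacterial RNA that is added to samples: for phe the ratio was -0.68 to -0.15 at 94 dpc, -0.71 and -0.23 on newborn replicates 1 and 6, and -3.32 to -2.90 on replicates 2 to 5. The cre control, which is added at hybridisation, had signals of 24098 to 33168 at 94 dpc, 33924 and 47869 on newborn replicates 1 and 6, and 58761 to 66951 on replicates 2 to 5. Correlations of log2 signals between arrays were 0.961 to 0.968 within 94 dpc, 0.923 to 0.931 within newborn replicates 2 to 5, 0.917 between replicates 1 and 6, and 0.882 to 0.913 across those 2 sets. The correlations between stages were 0.867 to 0.903. The median SD of a probe set was log2 0.30 at 94 dpc and 0.59 at 1 dpn. Because of these differences every change was fitted with all 6 newborn arrays and again with replicates 1 and 6 only, called the GAPDH-matched arrays for their GAPDH ratios. They did not match the fetal arrays in every control. For dap the ratio was -1.39 and -2.65 on replicates 1 and 6 against -3.86 to -3.09 at 94 dpc. For thr it was -1.50 and -2.42 against -4.06 to -3.54, and for actin -2.31 and -3.37 against -3.34 to -2.81. A change given below without a value for the GAPDH-matched arrays was called in the same direction on them.

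**Figure D1:**
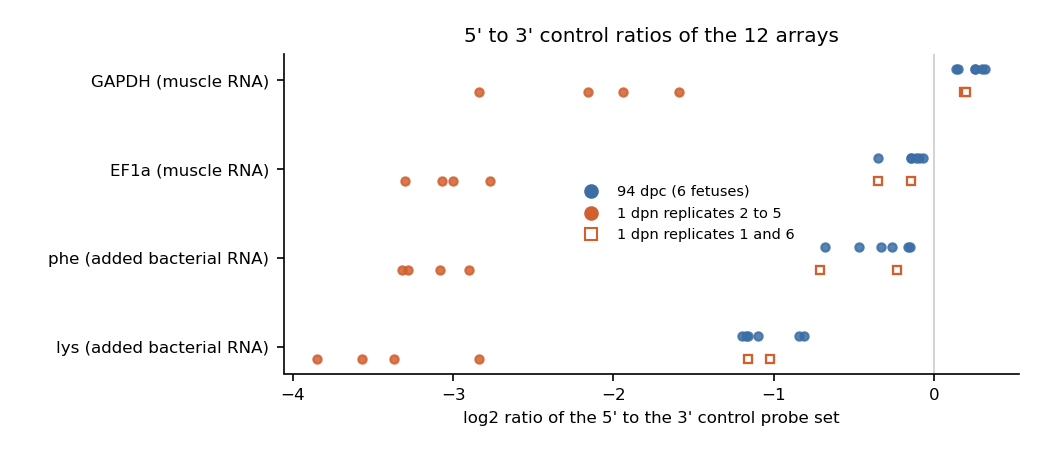
Log2 ratio of 5' to 3' control signal (x axis) for 4 control RNAs on the 12 arrays, 1 point per animal. Newborn replicates 2 to 5 lie apart from the fetal arrays for all 4 RNAs, down to -3.85 for lys, while newborn replicates 1 and 6 lie among or next to the fetal arrays. The actin, dap and thr ratios, in which replicates 1 and 6 fell outside the fetal range, are not plotted.

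With limma on log2(signal + 16), 7836 of 23999 probe sets differed between 94 dpc and 1 dpn at an adjusted p under 0.05 (32.7% of those tested; Benjamini-Hochberg adjustment over all probe sets). These are the calls referred to below, and a log2 change is the difference of the stage means on this scale, which understates the change of dim probe sets. Of the called probe sets 2626 were higher and 5210 lower in newborns, 33.5% higher. This split depended on scaling: 57.7% were higher with each array centred on its median and 47.4% after quantile normalization, which moved the median change of all probe sets by log2 0.26 and 0.13. The median change as deposited was -0.08. A change is relative to the deposited scaling, a trimmed mean near 500 per array, and not to the median probe set. The median signal per array was 140.7 to 160.6 at 94 dpc and 114.4 to 135.4 at 1 dpn. With the GAPDH-matched arrays alone as newborn samples 6101 probe sets were called, and with replicates 2 to 5 alone 8666.

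A set of 4641 probe sets (19.3% of those tested) was called in the same direction with all newborn arrays and with the GAPDH-matched arrays, 1276 higher and 3365 lower. They made up 48.6% of the higher calls and 64.6% of the lower calls. The 2 analyses called 4 probe sets in opposite directions. They are not independent, because the GAPDH-matched arrays are 2 of the 6 newborn arrays and the fetuses are the same. Large changes were shared more often: 45.5% of the calls under log2 1, 66.9% of those from 1 to 2, 91.6% of those from 2 to 3, and 82 of the 83 calls of at least 3. No newborn animal overlapped any fetus in 3960 probe sets (16.5%), of which 3881 were also called.

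**Figure D2:**
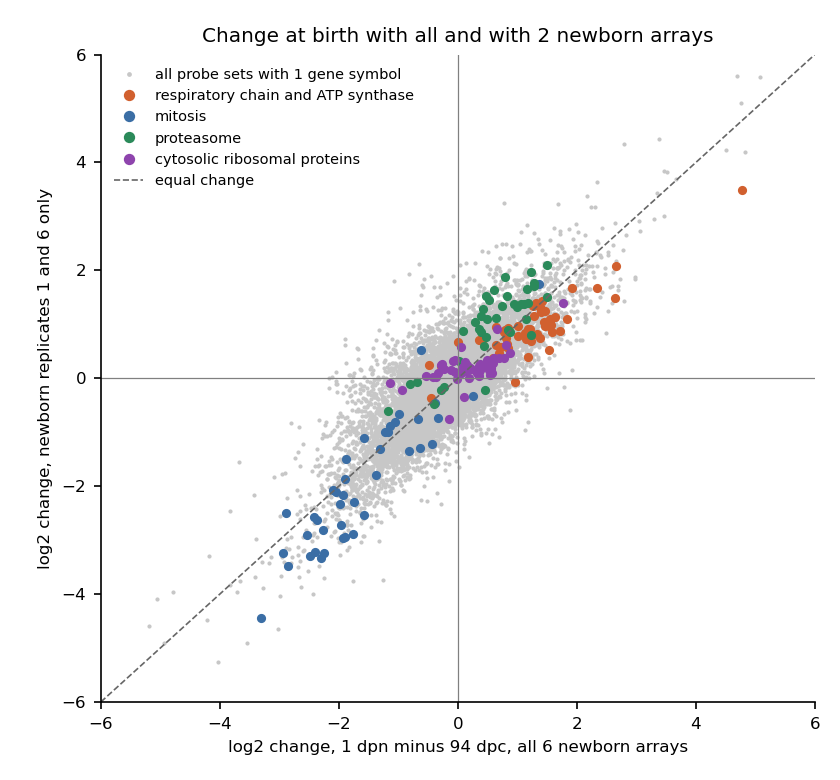
Log2 change from 94 dpc to 1 dpn with all 6 newborn arrays (x axis) and with newborn replicates 1 and 6 only (y axis) for every probe set with 1 gene symbol, with 4 gene lists coloured. Mitosis genes and proteasome genes lie further from 0 on the y axis than on the x axis (list medians -1.88 on the x axis and -2.11 on the y axis for mitosis, 0.56 and 1.11 for the proteasome), while respiratory chain and ribosomal protein genes lie nearer to 0 on it (1.20 and 0.84, 0.31 and 0.19).

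Among the 15 largest rises, CKMT2, the creatine kinase of muscle mitochondria, had signals of 1054, 1384 and 1780 at 94 dpc and 21958, 47537 and 49827 at 1 dpn (lowest, median and highest animal, here and below). The rule for the 15 largest rises and 15 largest falls admitted only genes without overlap between the stages. It also required a call in the same direction with all and with the GAPDH-matched arrays. The CKMT2 ranges lie far apart, although the GAPDH-matched arrays (21958 and 28712) are the lowest of the newborns (log2 change 4.82 ± 0.21 SE, adjusted p = 1.2e-12, and 4.20 on the GAPDH-matched arrays). PDK4, the kinase that closes the pyruvate dehydrogenase gate when fat is burned, had signals of 181, 224 and 551 at 94 dpc and 3486, 7595 and 28394 at 1 dpn. Its newborn levels spread widely, with the highest in replicate 1 and the lowest still above every fetus (log2 change 4.76 ± 0.48 SE, adjusted p = 2.1e-07, GAPDH-matched arrays 5.11). CPT1B, which admits long fatty acids to muscle mitochondria, had signals of 643, 848 and 983 at 94 dpc and 4772, 7612 and 8546 at 1 dpn (log2 change 3.04 ± 0.25 SE, adjusted p = 2e-08). ATP5I, a small subunit of the ATP synthase, had signals of 202, 598 and 788 at 94 dpc and 4874, 17939 and 23450 at 1 dpn. Its newborn values split by array set, at 4874 and 5557 on the GAPDH-matched arrays and 14673 to 23450 on the other 4, all above the fetuses (log2 4.78 with all and 3.48 on the GAPDH-matched arrays). Another ATP5I probe set, below background at both stages, was not called (log2 0.31, adjusted p = 0.45). For the aspartate aminotransferase GOT1 the GAPDH-matched arrays were also the lowest newborn arrays, at 3806 and 9570 against 17918 to 20337 on the others (log2 2.97 with all and 1.88 on the GAPDH-matched arrays).

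TP53INP2, which acts in autophagosome formation, had signals of 33.5, 151 and 269.9 at 94 dpc and 2143, 3477 and 4890 at 1 dpn (log2 change 4.51 ± 0.38 SE, adjusted p = 2.5e-08). HSPB7, a small heat shock protein of striated muscle, had signals of 472, 629.7 and 816 at 94 dpc and 5664, 8043 and 10673 at 1 dpn (log2 change 3.67 ± 0.34 SE, adjusted p = 7.9e-08). For HSPB7, newborn replicates 1 and 6 lay within the range of the other newborns. For TP53INP2, replicate 1 (3494) did so and replicate 6 (2143) was the lowest newborn. The log2 changes on the GAPDH-matched arrays were 4.24 for TP53INP2 and 3.70 for HSPB7. FKBP5, a co-chaperone of the glucocorticoid receptor and a classic cortisol target, had signals of 70.5, 90.7 and 107 at 94 dpc and 614, 1051 and 2212 at 1 dpn, from just above background to a clear signal in every newborn (log2 change 3.47 ± 0.45 SE, adjusted p = 3.9e-06). Angiotensinogen, AGT, the precursor of angiotensin peptides and known chiefly from liver, had signals of 119.8, 436 and 873 at 94 dpc and 2290, 5110 and 10287 at 1 dpn (log2 change 3.52 ± 0.40 SE, adjusted p = 9.6e-07). The calcium pump of fast fibres, ATP2A1, rose 9.83-fold and the titin-binding stress gene ANKRD1 6.92-fold. Newborn ANKRD1 signals were 14182 and 12725 on the GAPDH-matched arrays and 1417 to 4950 on the others. The mitochondrial ferredoxin FDX1 (log2 2.83), the D-aspartate oxidase DDO (3.35) and the vesicle motor MYO5B (3.46) completed the largest rises. The largest rise of all belonged to LOC100153598, a protein-coding gene with no symbol in the annotation used here, at 518, 705 and 898 at 94 dpc and 9218, 28329 and 38838 at 1 dpn (log2 change 5.08 ± 0.28 SE, adjusted p = 6.7e-11). Another probe set of this gene was not called (log2 -0.28, adjusted p = 0.36).

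Among the 15 largest falls, midkine, MDK, a heparin-binding growth factor of developing tissues, had signals of 3338, 3592 and 3724 at 94 dpc and 16.4, 115 and 169 at 1 dpn, and 4 of 6 newborn arrays exceeded the background signal of 69.7 (log2 change -5.20 ± 0.39 SE, adjusted p = 6.2e-09). The embryonic light chain MYL4 had signals of 5319, 6759 and 9212 at 94 dpc and 127, 218 and 294 at 1 dpn (log2 change -4.95 ± 0.26 SE, adjusted p = 3.8e-11). TNNT2, the troponin T of heart and embryonic muscle, had signals of 2132, 2434 and 3335 at 94 dpc and 11.9, 67.4 and 182 at 1 dpn, with 3 newborn arrays above background (log2 change -5.05 ± 0.58 SE, adjusted p = 9.8e-07). The highest newborn signal of each of these genes lay far below its lowest fetal signal, and on the GAPDH-matched arrays the log2 changes were -4.59, -4.90 and -4.09. Periostin, POSTN, a matrix protein, had signals of 7839, 11114 and 16402 at 94 dpc and 289.9, 561 and 1724 at 1 dpn (log2 change -4.21 ± 0.46 SE, adjusted p = 4.5e-07). The proteoglycan versican, VCAN, had signals of 1705, 1774 and 2217 at 94 dpc and 63.5, 149 and 230.5 at 1 dpn (log2 change -3.67 ± 0.28 SE, adjusted p = 6.7e-09). Of its 5 probe sets 3 were called, all lower. Asporin, ASPN (-3.03), osteopontin, SPP1 (-2.99), fibronectin, FN1 (-2.98 by its largest-changing probe set and -1.78 by its brightest, with 2 of 4 probe sets called), and the secreted C1QTNF3 (-3.54) fell as well. MEG3, a maternally expressed noncoding RNA, was more uneven: newborn signals were 3860 and 1059 on the GAPDH-matched arrays and 115 to 311 on the others, against 4895 to 6903 in fetuses. Its fall was log2 3.67 with all arrays and 1.55 on the GAPDH-matched arrays, called both times as the rule required. The glucocorticoid receptor NR3C1 was also highest in newborn replicate 1, with signals of 256 and 86.5 on the GAPDH-matched arrays, 12.1 to 118 on the others and 485 to 610.2 in fetuses (log2 -2.96 and -1.77). With all arrays this was the 1 called of the 4 probe sets of NR3C1, whose changes ranged from log2 -2.96 to -0.06, and on the GAPDH-matched arrays 3 were called lower. UBE2C, the ubiquitin-conjugating enzyme of the anaphase-promoting complex, was lower on the GAPDH-matched arrays (28.6 and 75.8) than on most others, so its change was larger there (-3.31 and -4.44). Another UBE2C probe set changed by log2 -0.07 and was not called. TPPP3 fell by log2 2.92, C3H2orf40 fell by 3.71 and LOC396711 fell by 3.82. Newborn LOC396711 signals were 463.5 and 130.6 on the GAPDH-matched arrays, 12.76 to 84.72 on the others and 990.1 to 2200 in fetuses. With all arrays 2 probe sets of LOC396711 were called lower, and on the GAPDH-matched arrays 1.

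**Figure D3:**
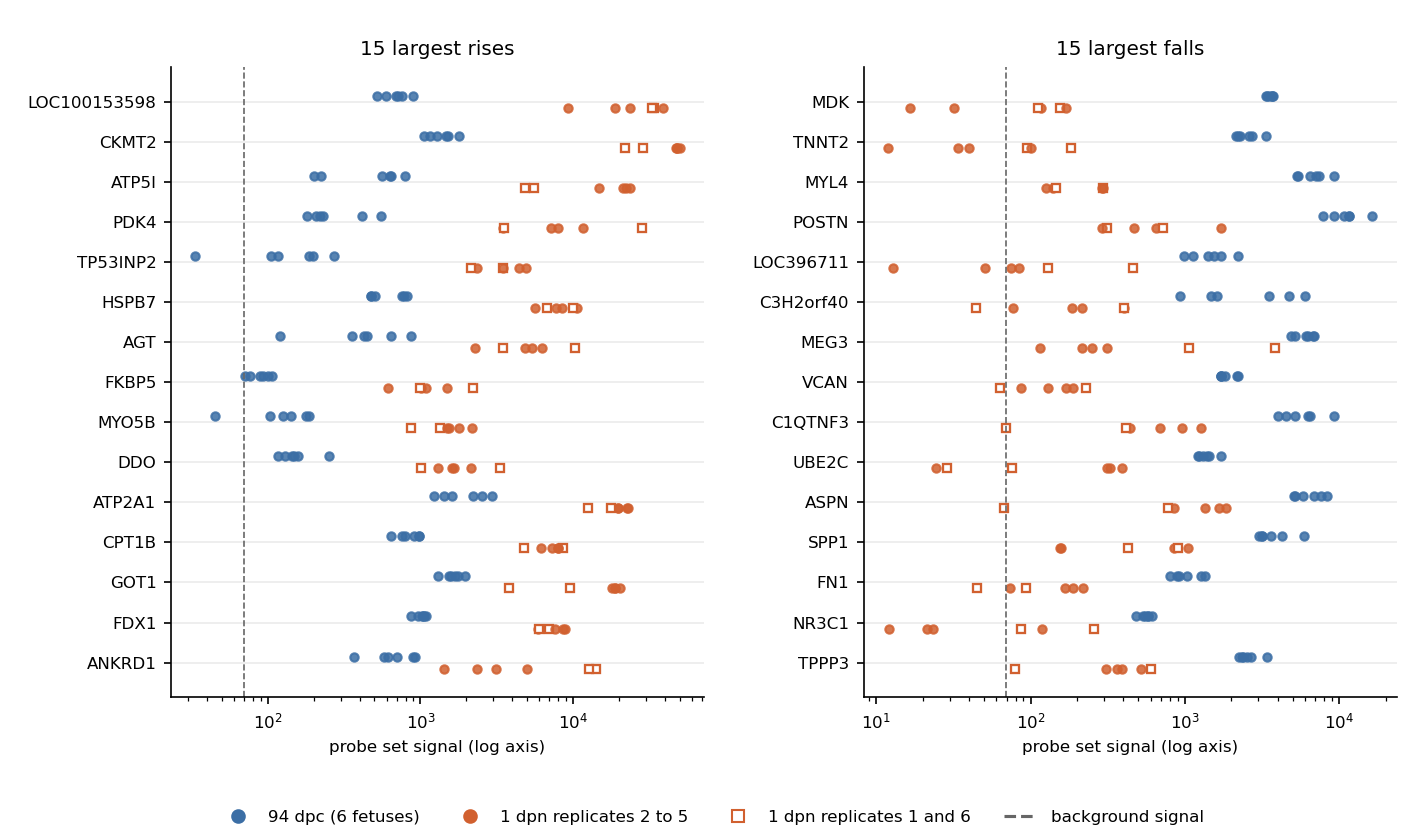
Signal per animal (log axis) for the 15 largest rises and the 15 largest falls by the rule in the methods, with the background signal of 69.7 as a dashed line. In every row the 12 animals separate by stage, which the rule required of these genes. Newborn replicates 1 and 6 (open squares) lie below all other newborns for CKMT2, ATP5I, GOT1, ATP2A1, MYO5B, ASPN and C1QTNF3. They lie above all other newborns for ANKRD1, MEG3 and LOC396711.

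For groups of genes, each gene is represented by its brightest probe set. Other probe sets of a gene did not always change with it, and they are given for some genes only. Over all 6765 named genes 17.3% were higher and 23.8% lower with all arrays, and 10.2% and 14.6% were so called both with all arrays and with the GAPDH-matched arrays. The median named gene changed by log2 -0.06 and -0.04. These percentages are the background for each count below, where "in both analyses" means called the same way with all and with the GAPDH-matched arrays.

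**Figure D4:**
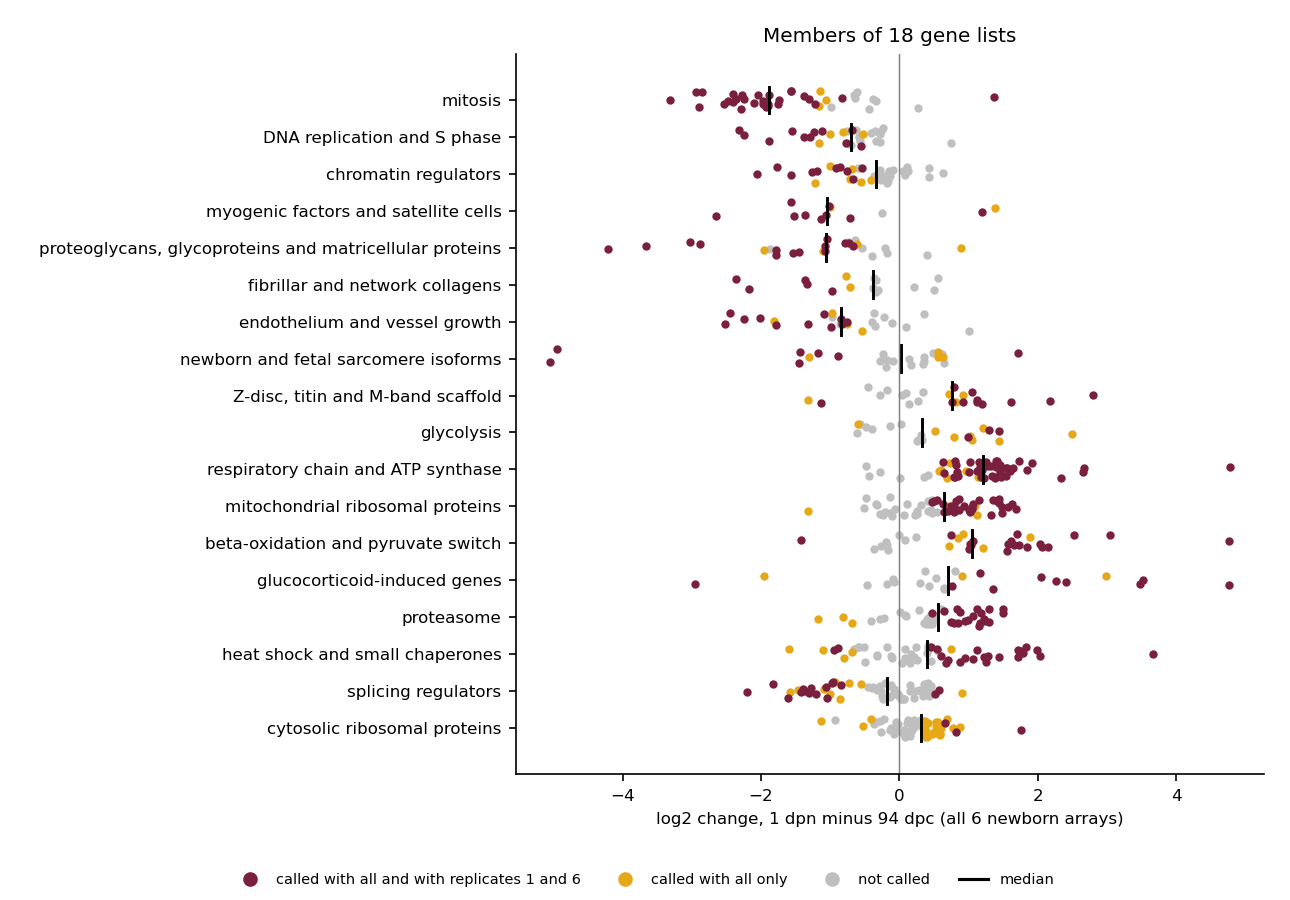
Log2 change from 94 dpc to 1 dpn (x axis) for each measured member of 18 gene lists, with the list median as a black bar. Dark points were called in both analyses, yellow points with all arrays only and grey points were not called. Mitosis genes lie mostly below 0 (median -1.88) and respiratory chain genes mostly above (median 1.20), while nearly all ribosomal protein calls are yellow.

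In the contractile apparatus a few isoforms changed, and most of the abundant ones were not called. Myosin light chains and troponins exist as embryonic, slow and fast forms that are exchanged as fibres mature. Of 24 measured thick and thin filament genes 4 were higher and 7 lower (1 and 6 in both analyses), with a median change of 0.02. Besides MYL4 and TNNT2, the lower genes were the non-muscle and smooth muscle light chains MYL6 (-1.46) and MYL9 (-0.88), the tropomyosins TPM4 (-1.43) and TPM3 (-1.18), and MYBPC1, the slow myosin-binding protein C (-1.31, GAPDH-matched arrays log2 -0.67, adjusted p = 0.2). The slow and ventricular essential light chain MYL3 had signals of 2729, 4822 and 7652 at 94 dpc and 9603, 16151 and 23343 at 1 dpn, a rise that held in both analyses (log2 change 1.71 ± 0.35 SE, adjusted p = 0.00067, GAPDH-matched arrays 2.13). The other 3 higher genes, the fast MYL1 (0.55), MYLPF (0.56) and TNNC2 (0.63), were at log2 0.13 to 0.19 on the GAPDH-matched arrays and not called there. After quantile normalization 1 member was higher and 13 lower, and after median centring 10 and 7, so the directions counted among the small changes of these bright genes depend on the scaling. The troponin T genes of slow and fast fibres, TNNT1 and TNNT3, were not called, with medians of 22510 at 94 dpc and 26749 at 1 dpn for TNNT1 and 36164 at 94 dpc and 32656 at 1 dpn for TNNT3. The slow myosin MYH7 (medians 27378 at 94 dpc and 39814 at 1 dpn) and the fast MYH2 (6965 at 94 dpc and 10142 at 1 dpn) were not called either.

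At the Z-disc and M-band, the anchoring lattices of the sarcomere, 13 of 23 measured genes were higher and 2 lower (10 and 1 in both analyses; median 0.76). FHL3, a LIM domain protein, had signals of 516, 629.6 and 746 at 94 dpc and 1029, 2347 and 13638 at 1 dpn, and XIRP1, an actin-binding protein of muscle attachment sites, 640.3, 945 and 1578 at 94 dpc and 1769, 2259 and 12240 at 1 dpn. The newborn and fetal ranges did not overlap for either gene, and the log2 changes with all and with the GAPDH-matched arrays were 2.18 and 3.37 for FHL3 and 1.62 and 2.78 for XIRP1. With newborn replicates 2 to 5 only, XIRP1 was not called (log2 1.04, adjusted p = 0.053). The M-band protein MYOM2 fell (-1.13 and -1.86). PDLIM7, which binds actin at the Z-disc, was lower with all arrays (-1.31) and not called on the GAPDH-matched arrays (log2 -1.32, adjusted p = 0.11) or without newborn replicate 1 (log2 -1.08, adjusted p = 0.053) or 2 (log2 -1.09, adjusted p = 0.058). In calcium handling, ATP2A1 had signals of 1225, 1913 and 2938 at 94 dpc and 12457, 19771 and 22819 at 1 dpn, with no overlap (log2 change 3.30 ± 0.21 SE, adjusted p = 5.4e-10, GAPDH-matched arrays 2.96). RYR3, a release channel of developing muscle, fell, at 277, 359.6 and 398 at 94 dpc and 22.6, 97.3 and 155 at 1 dpn (log2 change -1.96 ± 0.28 SE, adjusted p = 1.5e-05), whereas the adult channel RYR1 was not called (medians 6697 at 94 dpc and 5770 at 1 dpn). The slow pump ATP2A2 was higher with all arrays (0.97) and not called on the GAPDH-matched arrays (log2 0.46, adjusted p = 0.33). Of the 10 calcium genes measured, 5 were higher with all arrays and 1 in both analyses.

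**Figure D5:**
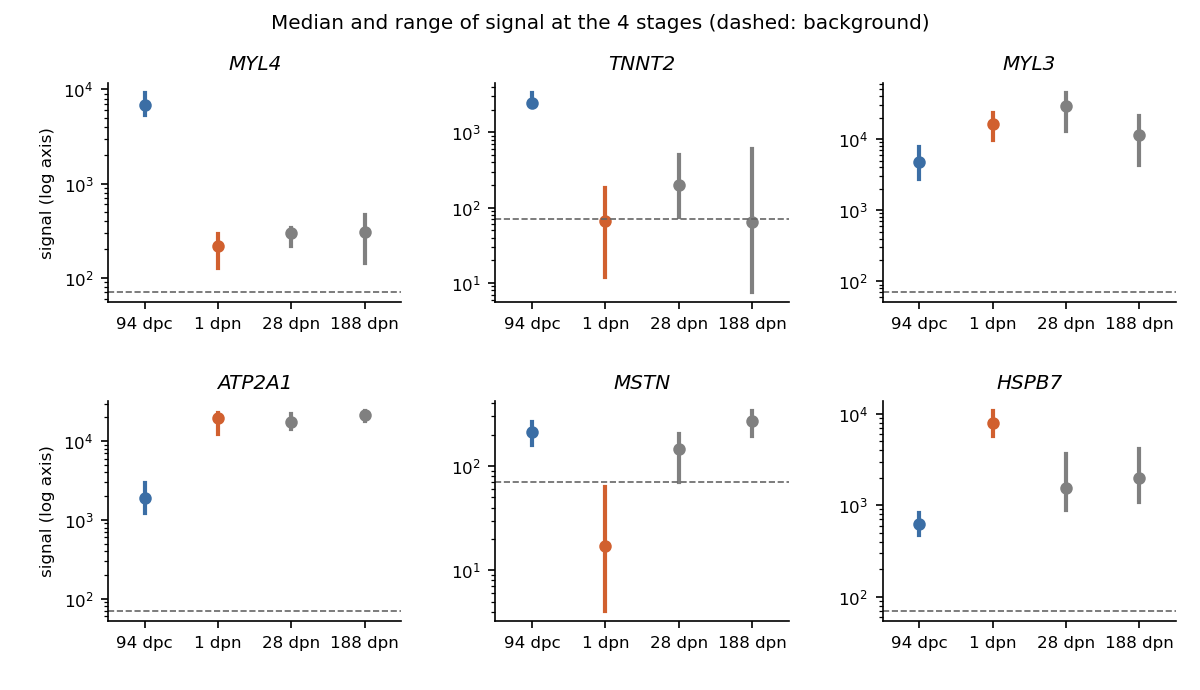
Median (point) and lowest to highest signal (line) at 94 dpc, 1 dpn, 28 dpn and 188 dpn on log axes for 6 genes, with background at 69.7 dashed. The medians of MYL4 and TNNT2 lay below and those of ATP2A1 and MYL3 above the fetal median at all 3 postnatal ages, while the newborn median was the highest of the 4 stages for HSPB7 (8043) and the lowest for MSTN (16.9).

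Subunits of membrane pumps and channels changed in both directions. The sodium pump subunit ATP1B1 rose from a median of 4753 to 22907 (log2 change 2.05 ± 0.20 SE, adjusted p = 1.5e-07) while ATP1B3 fell from 2346 to 659 (log2 change -1.59 ± 0.22 SE, adjusted p = 8.8e-06), and the water channel AQP1 rose (log2 1.34). Each of these was called in both analyses. NCAM1, an adhesion molecule of myotubes and nerve, fell (log2 change -1.60 ± 0.18 SE, adjusted p = 1e-06). The acetylcholine receptor alpha subunit CHRNA1 was lower with all arrays (log2 change -1.07 ± 0.31 SE, adjusted p = 0.011) but not on the GAPDH-matched arrays (log2 -0.76, adjusted p = 0.15).

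Of 12 myogenic and satellite cell genes 9 were lower and 2 higher (8 and 1 in both analyses), with medians of -1.04 and -1.55. After median centring 5 were lower and 2 higher. In whole muscle, fewer cells of a type and less RNA per cell cannot be told apart. Myostatin, MSTN, the secreted brake on muscle growth, had signals of 159, 211 and 262 at 94 dpc and 4.07, 16.9 and 62.4 at 1 dpn and was below background in every newborn, at least 2.61-fold lower (adjusted p = 4.4e-07). At 28 dpn its signals were 70 to 203, all above background. The calcitonin receptor CALCR, which marks quiescent satellite cells, had signals of 586, 741 and 823 at 94 dpc and 76.6, 303 and 444 at 1 dpn (log2 change -1.57 ± 0.39 SE, adjusted p = 0.0032) and the chemokine receptor CXCR4 2357, 2962 and 3329 at 94 dpc and 483, 1105 and 1516 at 1 dpn (log2 change -1.53 ± 0.26 SE, adjusted p = 8.8e-05), both with no overlap (GAPDH-matched arrays -2.58 and -1.91). The commitment factors MYF5 (-1.14) and MYOD1 (-1.02) fell in both analyses. MYF6, the factor of differentiated fibres, was lower with all arrays (medians 1239 at 94 dpc and 543 at 1 dpn, adjusted p = 0.019) and not called on the GAPDH-matched arrays (log2 0.08, adjusted p = 0.88). PAX3, a factor of muscle precursors, was below background in every fetus and above it in 5 newborns, and was higher with all arrays (adjusted p = 0.018) but not called on the GAPDH-matched arrays (adjusted p = 0.48). MEF2D, which drives genes of differentiated muscle, rose from a median of 2438 to 5891 (log2 change 1.19 ± 0.19 SE, adjusted p = 6e-05).

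Ligands and receptors of growth pathways that changed were mostly lower. Of 19 genes of the insulin and insulin-like growth factor pathway 2 were higher and 5 lower (1 and 2 in both analyses), near the background percentages. The ligand IGF1 had signals of 202, 256 and 288 at 94 dpc and 14.1, 32 and 109 at 1 dpn with 1 newborn array above background (adjusted p = 1.2e-06), so that the size of its fall is uncertain. The binding protein IGFBP2 had signals of 299, 451 and 602 at 94 dpc and 17, 109.9 and 182 at 1 dpn (log2 change -2.30 ± 0.35 SE, adjusted p = 2.8e-05). The adaptor GRB10, which dampens insulin receptor signalling, rose, at 937, 1027 and 1160 at 94 dpc and 2755, 3443 and 12039 at 1 dpn (log2 change 1.97 ± 0.29 SE, adjusted p = 1.6e-05, GAPDH-matched arrays 2.45). TSC2, a brake on mTOR, was lower with all arrays (-1.85) but not called on the GAPDH-matched arrays (log2 -0.45, adjusted p = 0.16).

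Of 18 other growth factor genes that act through receptor tyrosine kinases 9 were lower, 8 in both analyses. Beside MDK these included FGF18 (-1.75) and the epidermal growth factor receptor EGFR, at 2004, 2695 and 2823 at 94 dpc and 642, 829.7 and 1727 at 1 dpn (log2 change -1.43 ± 0.21 SE, adjusted p = 1.5e-05). Pleiotrophin, PTN, the close relative of midkine, was lower with all arrays (-1.87) and not called on the GAPDH-matched arrays (log2 -1.06, adjusted p = 0.089). In the Wnt pathway 6 of 13 genes were lower (5 in both analyses). Its co-receptor LRP6 had signals of 230.3, 362 and 383 at 94 dpc and 11.6, 108 and 147 at 1 dpn (log2 change -1.77 ± 0.30 SE, adjusted p = 0.0001), and the receptors FZD6 (-1.48) and FZD2 (-1.08) and the secreted inhibitor SFRP1 (-0.95) fell as well. Another FZD6 probe set was not called (log2 -0.05).

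In the Notch pathway, which holds satellite cells in an undifferentiated state, 5 of 8 genes were lower, the same number in both analyses, and 1 was higher. The DNA-binding partner of Notch, RBPJ, had signals of 878, 1064 and 1321 at 94 dpc and 77.1, 137 and 353 at 1 dpn (log2 change -2.65 ± 0.27 SE, adjusted p = 2.3e-07). The ligand DLL4 (-0.84) and the receptor-modifying enzyme LFNG (-1.55) fell, and the target gene HEY2 fell to below background in every newborn (medians 95.3 at 94 dpc and 26.7 at 1 dpn, adjusted p = 0.0011). Another target, HES1, went the other way with all arrays (0.81) and was not called on the GAPDH-matched arrays (log2 0.39, adjusted p = 0.26). Of 27 TGF-beta and BMP genes 10 were lower and 2 higher (8 lower in both analyses). The ligand TGFB3 had signals of 625, 766 and 1043 at 94 dpc and 93.1, 180.3 and 250.3 at 1 dpn (log2 change -2.07 ± 0.27 SE, adjusted p = 4.8e-06), and the receptors BMPR1B (-1.71) and TGFBR1 (-1.41) fell with it.

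Among 22 imprinted genes 7 were lower and 5 higher (5 and 1 in both analyses). PEG10, a retrotransposon-derived gene of fetal growth, had signals of 15175, 16806 and 19986 at 94 dpc and 2609, 3074 and 4563 at 1 dpn (log2 change -2.41 ± 0.17 SE, adjusted p = 3.9e-09, GAPDH-matched arrays -2.39), and PEG3 316, 387 and 433 at 94 dpc and 10.7, 82.2 and 145 at 1 dpn (log2 change -2.42 ± 0.38 SE, adjusted p = 4e-05). Both fell without overlap. GRB10, another member of this list, rose as given above. Of 9 homeobox cluster genes and partners 3 were lower and 1 higher, with HOXD10 higher in both analyses (medians 523 at 94 dpc and 785 at 1 dpn). MEIS2 was lower in both analyses (medians 289 at 94 dpc and 151 at 1 dpn). It was not called after quantile normalization (log2 -0.66, adjusted p = 0.12), median centring (log2 -0.74, adjusted p = 0.064), a pseudocount of 1 (log2 -1.07, adjusted p = 0.069) or with newborn replicates 2 to 5 only (log2 -0.85, adjusted p = 0.062).

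Of 41 measured mitosis genes 32 were lower and 1 higher (29 and 1 in both analyses), with a median of -1.88, or -2.11 on the GAPDH-matched arrays. The kinase AURKB, which acts at centromeres, had signals of 415, 461 and 485 at 94 dpc and 15.7, 39.5 and 157 at 1 dpn. Only 1 newborn array exceeded background (adjusted p = 4.4e-07), which leaves the size of its fall uncertain. CKS2, a partner of cyclin-dependent kinases, had signals of 1578, 2000 and 2163 at 94 dpc and 169.7, 218 and 513 at 1 dpn (log2 change -2.89 ± 0.25 SE, adjusted p = 3.8e-08), and RACGAP1, needed for cytokinesis, 1250, 1313 and 1579 at 94 dpc and 87, 165 and 302 at 1 dpn (log2 change -2.86 ± 0.27 SE, adjusted p = 9.8e-08). The fetal and newborn ranges were apart for all 3. The exception among the called genes was CDKN3, a phosphatase that acts on CDK2, which rose from a median of 784 to 1898 (log2 change 1.36 ± 0.18 SE, adjusted p = 6e-06, GAPDH-matched arrays 1.74). In DNA replication 17 of 30 genes were lower (11 in both analyses), while 8 were lower after quantile normalization and 9 after median centring. TOP2A, which untangles replicated DNA, had signals of 445, 520.5 and 648 at 94 dpc and 27.7, 90.1 and 230.1 at 1 dpn (log2 change -2.32 ± 0.44 SE, adjusted p = 0.00031), and the helicase subunit MCM2 619, 749.6 and 848 at 94 dpc and 81.6, 276 and 399 at 1 dpn (log2 change -1.55 ± 0.30 SE, adjusted p = 0.00034). Thymidylate synthase, TYMS, was below background in every newborn, with medians of 147 at 94 dpc and 13.9 at 1 dpn (adjusted p = 4.2e-05).

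Cyclin D2, CCND2 (-1.37), and the stress kinase PLK2 (log2 change -2.84 ± 0.29 SE, adjusted p = 2.2e-07) also fell in both analyses. Of 36 chromatin regulators 16 were lower (10 in both analyses, and 10 after median centring). SMARCA1, a chromatin remodelling ATPase, had signals of 884, 1285 and 1670 at 94 dpc and 186, 237 and 519.7 at 1 dpn (log2 change -2.06 ± 0.26 SE, adjusted p = 3.1e-06), and EZH2, which writes the repressive H3K27 methyl mark, 251, 314 and 355 at 94 dpc and 18.1, 83.5 and 249 at 1 dpn (log2 change -1.76 ± 0.33 SE, adjusted p = 0.00024). Of 62 splicing regulators 22 were lower and 3 higher (14 and 2 in both analyses; median -0.18). After median centring 14 were higher and 17 lower, so the split of this list depends on the scaling. MBNL3, the muscleblind protein of precursor cells, had signals of 560.2, 660 and 856 at 94 dpc and 87.2, 128 and 231 at 1 dpn (log2 change -2.21 ± 0.34 SE, adjusted p = 2.7e-05) and the ribonucleoprotein HNRNPA3 962, 1713 and 1980 at 94 dpc and 258, 418 and 612 at 1 dpn (log2 change -1.82 ± 0.21 SE, adjusted p = 1e-06). SRSF9 was lower with all arrays (-1.58) and not called on the GAPDH-matched arrays (log2 0.01, adjusted p = 0.97).

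In all 4 classes of extracellular matrix genes examined, more genes were lower than higher, as was also so over all named genes (23.8% lower, 17.3% higher). Of 15 collagen chains 7 were lower (5 in both analyses). COL1A2, a chain of the main fibrillar collagen, had signals of 1641, 2215 and 3700 at 94 dpc and 363, 482 and 854 at 1 dpn (log2 change -2.17 ± 0.24 SE, adjusted p = 6.6e-07), and the fibril-nucleating COL5A1 4985, 6679 and 7109 at 94 dpc and 739, 3084 and 3456 at 1 dpn (log2 change -1.34 ± 0.28 SE, adjusted p = 0.00083). COL5A2 was below background in every newborn by 1 of its 2 probe sets, at least 2.73-fold lower, and the other was not called (log2 -0.37). COL15A1, a chain of basement membranes, fell by log2 1.36. Of 21 genes that process or degrade collagen 11 were lower and 1 higher (9 lower in both analyses, and 6 after median centring). The protease FAP of activated fibroblasts had signals of 1465, 1756 and 2200 at 94 dpc and 125, 357 and 685 at 1 dpn (log2 change -2.36 ± 0.27 SE, adjusted p = 1e-06), and the membrane collagenase MMP14 910.5, 1233 and 1339 at 94 dpc and 104, 201 and 449 at 1 dpn (log2 change -2.35 ± 0.36 SE, adjusted p = 3e-05).

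Among 26 proteoglycans, glycoproteins and matricellular proteins 17 were lower and 1 higher (14 lower in both analyses; median -1.06). THBS2, a matricellular thrombospondin, had signals of 4679, 7530 and 12873 at 94 dpc and 624, 909.7 and 2390 at 1 dpn (log2 change -2.88 ± 0.35 SE, adjusted p = 2.1e-06). The 1 higher gene was MGP, the matrix Gla protein (0.88, GAPDH-matched arrays log2 0.44, adjusted p = 0.31). Of 19 laminins, integrins and linker genes 6 were lower and 1 higher (4 lower in both analyses, median -0.12). After median centring 5 were lower and 2 higher. LAMB1 had signals of 4280, 5249 and 5522 at 94 dpc and 974, 1488 and 2455 at 1 dpn (log2 change -1.74 ± 0.19 SE, adjusted p = 5.1e-07). LAMB2 had 3844, 4314 and 5332 at 94 dpc and 1245, 1603 and 1770 at 1 dpn (log2 change -1.52 ± 0.15 SE, adjusted p = 1.4e-07). Fibroblast markers moved with the matrix genes: the summed DCN and LUM signal was 24730 to 29822 at 94 dpc and 9719 to 15452 at 1 dpn, and 2 further markers, COL1A1 and PDGFRA, were not measured. Of 14 fibroblast and fibro-adipogenic genes 7 were lower. The part of fibroblast number in the matrix changes was not tested.

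Of 25 genes of endothelium and vessel growth 15 were lower (11 in both analyses; median -0.85). The receptor TIE1 had signals of 279, 306 and 358 at 94 dpc and 6.98, 39.6 and 110.4 at 1 dpn, with 2 newborn arrays above background (log2 change -2.52 ± 0.33 SE, adjusted p = 4e-06). The tight junction claudin CLDN5 had signals of 1472, 1778 and 2136 at 94 dpc and 318, 435 and 508 at 1 dpn (log2 change -2.01 ± 0.17 SE, adjusted p = 2e-08), and RAMP2, the adrenomedullin receptor partner, 3280, 3618 and 3856 at 94 dpc and 365, 603 and 1099 at 1 dpn (log2 change -2.45 ± 0.22 SE, adjusted p = 5.7e-08). ANGPT2, the angiopoietin of remodelling vessels, fell as well (log2 change -2.25 ± 0.22 SE, adjusted p = 1.6e-07), with 2 newborn arrays above background. The 4 endothelial markers PECAM1, CDH5, TIE1 and KDR summed to 8957 to 11434 at 94 dpc and 2286 to 4449 at 1 dpn. On the vessel wall, MCAM (log2 change -1.67 ± 0.27 SE, adjusted p = 4.3e-05) and the pericyte gene RGS5 (log2 change -1.30 ± 0.23 SE, adjusted p = 0.00011) fell, while the smooth muscle markers ACTA2 and CNN1 summed to 16089 to 23128 and 11915 to 22344, with overlapping ranges.

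In the cytoskeleton of growing and non-muscle cells 14 of 39 genes were lower and 6 higher (10 and 4 in both analyses). After median centring 8 were lower and 7 higher. The actin bundler FSCN1 (medians 4272 at 94 dpc and 1209 at 1 dpn by its brightest probe set) and the calponin CNN3 (log2 -1.99) fell, and MYO5B rose, at 45.3, 133 and 187 at 94 dpc and 868, 1515 and 2191 at 1 dpn. At 28 dpn the median of MYO5B was 223.

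The respiratory chain passes electrons from nutrients to oxygen and drives the ATP synthase. Of 60 measured subunits 54 were higher, 46 higher in both analyses, and the animals of the stages did not overlap in 46. The median change was 1.20 with all arrays and 0.84 on the GAPDH-matched arrays. Cytochrome c, CYCS, had signals of 1232, 3014 and 4049 at 94 dpc and 8147, 17902 and 27039 at 1 dpn (log2 change 2.66 ± 0.30 SE, adjusted p = 7.4e-07), the complex III subunit UQCRB 5575, 6682 and 7626 at 94 dpc and 19781, 40542 and 44605 at 1 dpn (log2 change 2.33 ± 0.19 SE, adjusted p = 1.9e-08) and the complex I subunit NDUFC1 2195, 2408 and 3033 at 94 dpc and 5552, 20261 and 27665 at 1 dpn (log2 change 2.65 ± 0.29 SE, adjusted p = 6.1e-07). On the GAPDH-matched arrays the log2 changes of the 3 genes were 2.08, 1.68 and 1.49. After quantile normalization 44 subunits were higher and 3 lower.

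Of 58 mitochondrial ribosomal proteins, which translate the few proteins encoded in mitochondrial DNA, 33 were higher and 1 lower (30 higher in both analyses). Their medians were 0.64 and 0.76. MRPL2 had signals of 1490, 1682 and 2027 at 94 dpc and 2296, 6472 and 7540 at 1 dpn (log2 change 1.69 ± 0.23 SE, adjusted p = 5.6e-06) and MRPL38 458, 746 and 850.4 at 94 dpc and 1528, 2142 and 2728 at 1 dpn (log2 change 1.63 ± 0.17 SE, adjusted p = 3.5e-07), without overlap. Of 30 import and folding genes 16 were higher and 2 lower (12 and 1 in both analyses). The matrix chaperone HSPA9, which pulls proteins in, had signals of 3535, 4978 and 5645 at 94 dpc and 11224, 21056 and 24643 at 1 dpn (log2 change 2.00 ± 0.18 SE, adjusted p = 4.6e-08), and the chaperonin partner HSPE1 rose by log2 1.55. Of 28 carrier and dynamics genes 15 were higher and 2 lower (10 higher in both analyses). MPC2, a subunit of the pyruvate carrier, had signals of 5910, 6548 and 7516 at 94 dpc and 18366, 50672 and 55878 at 1 dpn (log2 change 2.55 ± 0.23 SE, adjusted p = 6.5e-08), and the pyrimidine carrier SLC25A33 328, 432 and 485 at 94 dpc and 990.4, 1835 and 10489 at 1 dpn (log2 change 2.35 ± 0.42 SE, adjusted p = 0.00017, GAPDH-matched arrays 3.63). The muscle uncoupling protein UCP3 had signals of 30.6, 72.8 and 122 at 94 dpc and 227, 443 and 563 at 1 dpn, with 3 fetal arrays above background (log2 change 2.35 ± 0.24 SE, adjusted p = 2.5e-07).

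Regulators of mitochondrial number did not move in 1 direction. Of 18 such genes 5 were higher and 5 lower (2 and 2 in both analyses). PRKAB2, a subunit of the energy sensor AMPK, rose, at 90.9, 146 and 155 at 94 dpc and 314, 382 and 835 at 1 dpn (log2 change 1.56 ± 0.25 SE, adjusted p = 4e-05), and PRKAG2, another, was lower with all arrays (-1.41) and not called on the GAPDH-matched arrays (adjusted p = 0.079). The coactivator PPARGC1A had medians of 463 at 94 dpc and 345 at 1 dpn and was not called with all arrays. The nuclear receptor PPARG was lower with all arrays (-1.73, 2 newborn arrays above background) but not on the GAPDH-matched arrays (log2 -0.12, adjusted p = 0.91).

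Of 32 genes of beta-oxidation and the pyruvate switch 23 were higher and 1 lower (18 and 1 in both analyses; medians 1.05 and 0.89). ACADVL, the first dehydrogenase for long chains, had signals of 2581, 3313 and 3994 at 94 dpc and 14025, 19249 and 20933 at 1 dpn (log2 change 2.52 ± 0.27 SE, adjusted p = 3.2e-07), and CRAT, which buffers acetyl units as carnitine esters, 869, 1179 and 1386 at 94 dpc and 3208, 5406 and 6811 at 1 dpn (log2 change 2.15 ± 0.18 SE, adjusted p = 2.9e-08). The 1 lower gene was OXCT1, the first enzyme of ketone body use in muscle, from a median of 389 to 163 (log2 change -1.42 ± 0.34 SE, adjusted p = 0.0023). Of 29 genes of fatty acid uptake, storage and release 13 were higher and 2 lower (7 and 1 in both analyses). The fatty acid binding protein of muscle, FABP3, had signals of 5795, 7441 and 8498 at 94 dpc and 25312, 51567 and 59970 at 1 dpn (log2 change 2.66 ± 0.32 SE, adjusted p = 1.4e-06), the lipase PNPLA2 1716, 2094 and 2518 at 94 dpc and 4654, 13454 and 17728 at 1 dpn (log2 change 2.48 ± 0.26 SE, adjusted p = 3e-07) and the acyl-CoA synthetase ACSL1 1370, 1800 and 2443 at 94 dpc and 5191, 14497 and 16079 at 1 dpn (log2 change 2.60 ± 0.27 SE, adjusted p = 3.1e-07). ANGPTL4, which inhibits lipoprotein lipase, rose with all arrays (log2 change 2.98 ± 0.52 SE, adjusted p = 0.00012) but was not called on the GAPDH-matched arrays (log2 1.83, adjusted p = 0.068). The summed adipocyte markers were higher in newborns: ADIPOQ, FABP4 and CFD summed to 4688 to 7696 at 94 dpc and 9881 to 17799 at 1 dpn. Of these FABP4 was called (log2 1.083), and CFD was not (log2 0.405, with overlapping ranges). Of 15 adipocyte genes 4 were higher and 1 lower (3 higher in both analyses). Adiponectin itself, ADIPOQ, was not called (medians 45 at 94 dpc and 67.8 at 1 dpn, both below background), and the part of adipocytes in these changes was not tested.

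Fewer of the glycogen and glucose genes were called on the GAPDH-matched arrays. Piglets are born with large glycogen stores in muscle, which they draw on in the first day. Of 14 glycogen genes 7 were higher and 2 lower with all arrays and 3 and 2 in both analyses. Glycogen phosphorylase, PYGM, had signals of 7358, 8832 and 11836 at 94 dpc and 15425, 46988 and 51451 at 1 dpn (log2 change 1.93 ± 0.25 SE, adjusted p = 3.7e-06, GAPDH-matched arrays 0.97), and glycogenin, GYG1, the primer of glycogen, 2091, 2466 and 2740 at 94 dpc and 4570, 7547 and 10238 at 1 dpn (log2 change 1.59 ± 0.17 SE, adjusted p = 3.2e-07). Glycogen synthase, GYS1, rose with all arrays (2.00) and was not called on the GAPDH-matched arrays (log2 1.12, adjusted p = 0.069). STBD1, which tethers glycogen for lysosomal breakdown, fell in both (log2 change -1.78 ± 0.20 SE, adjusted p = 7.2e-07). Of 21 glycolysis genes 10 were higher with all arrays but 3 in both analyses, and the median was 0.33 and 0.06. PGK1 (1.29) and ALDOC (1.43) were among those, while FBP2 (2.49, GAPDH-matched arrays log2 0.83, adjusted p = 0.4) and PFKM (1.43, GAPDH-matched arrays log2 0.68, adjusted p = 0.082) were not. TXNIP, which restrains glucose uptake, rose from a median of 17587 to 44755 (log2 change 1.29 ± 0.17 SE, adjusted p = 6.6e-06). The glucose transporter of insulin-responsive tissue, SLC2A4, was not called (medians 93 at 94 dpc and 208 at 1 dpn).

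Among energy buffers and biosynthesis, GAMT, the last enzyme of creatine synthesis, fell (log2 change -1.11 ± 0.23 SE, adjusted p = 0.0008), in contrast to CKMT2. AK3, an adenylate kinase of the mitochondrial matrix, rose (log2 change 1.25 ± 0.22 SE, adjusted p = 0.00016). Of 22 amino acid transport genes 7 were higher and 3 lower (2 and 1 in both analyses), and the glutamine transporter SLC38A1 fell from a median of 632 to 144 (log2 change -2.04 ± 0.23 SE, adjusted p = 6.6e-07). Of 21 cholesterol genes 4 were higher and 3 lower, with the synthesis enzyme MSMO1 (-1.01) and the fatty acid elongase ELOVL6 (-0.95) lower in both analyses.

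Of 24 genes known to be induced by glucocorticoids 11 were higher and 2 lower (9 and 1 in both analyses), with medians of 0.70 and, on the GAPDH-matched arrays, 1.24. The list holds NR3C1 itself, which is 1 of the lower genes, and shares PDK4, AGT and FKBP5 with the largest rises. KLF9, a transcription factor induced by cortisol and thyroid hormone, had signals of 387, 597 and 683 at 94 dpc and 1394, 3661 and 5340 at 1 dpn (log2 change 2.41 ± 0.32 SE, adjusted p = 5.3e-06, GAPDH-matched arrays 2.26). Another KLF9 probe set was not called (log2 -0.47). HSD11B1, the enzyme that regenerates cortisol inside cells, had signals of 264, 414 and 500.1 at 94 dpc and 857, 1312 and 3631 at 1 dpn (log2 change 1.88 ± 0.33 SE, adjusted p = 0.00015), with no overlap. DIO3, which inactivates thyroid hormone, was higher with all arrays (1.08) and not called on the GAPDH-matched arrays (log2 1.02, adjusted p = 0.15). Among clock genes, PER1, which is also in this list, rose from a median of 1970 to 4158 (log2 change 1.16 ± 0.26 SE, adjusted p = 0.0012) and USP2 from 1077 to 3797 (log2 change 1.67 ± 0.23 SE, adjusted p = 6.8e-06). The hour of sampling is not given in the labels. The transcription factors CEBPB (log2 change 2.06 ± 0.30 SE, adjusted p = 1.5e-05) and CEBPD (log2 change 2.04 ± 0.41 SE, adjusted p = 0.00056) rose without overlap.

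The proteasome degrades ubiquitin-tagged proteins. Of 40 proteasome genes 20 were higher and 3 lower with all arrays, 20 higher in both analyses, and 30 higher on the GAPDH-matched arrays alone. The medians were 0.56 and 1.11. The deubiquitinating subunit PSMD14 had signals of 996, 1241 and 1472 at 94 dpc and 2563, 3290 and 5225 at 1 dpn (log2 change 1.50 ± 0.19 SE, adjusted p = 2.7e-06) and the activator PSME3 271, 359 and 479.9 at 94 dpc and 744, 883 and 2313 at 1 dpn (log2 change 1.50 ± 0.23 SE, adjusted p = 2.6e-05, GAPDH-matched arrays 2.10). The 3 lower genes, PSME1, PSMD5 and PSMG3, were not called on the GAPDH-matched arrays.

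Of 53 heat shock and co-chaperone genes 22 were higher and 6 lower (21 and 2 in both analyses). Beside HSPB7, the small heat shock protein HSPB6 had signals of 1820, 2245 and 2664 at 94 dpc and 6242, 9093 and 12262 at 1 dpn (log2 change 1.99 ± 0.24 SE, adjusted p = 2e-06), and DNAJB6, a co-chaperone that is mutated in limb-girdle muscular dystrophy, 776, 996 and 1225 at 94 dpc and 2243, 4174 and 8218 at 1 dpn (log2 change 2.03 ± 0.24 SE, adjusted p = 1.6e-06). With all arrays 1 of 4 DNAJB6 probe sets was called (log2 -0.81 to 2.03) and 1 of 2 HSPB6 probe sets (log2 -0.72 and 1.99). CRYAB, the desmin chaperone, rose from a median of 9790 to 29636 (log2 change 1.71 ± 0.21 SE, adjusted p = 2.6e-06). At 28 dpn the median of HSPB7 was 1553. Of 22 genes of the stress response of the endoplasmic reticulum 4 were higher and 4 lower, with HSP90B1 (-1.19) and PDIA3 (-0.98) lower and the stress factor DDIT3 (1.25) higher in both analyses. In autophagy and atrophy, 8 of 36 genes were higher and 2 lower. The cargo receptor SQSTM1 had signals of 2958, 3484 and 3787 at 94 dpc and 5920, 9503 and 19106 at 1 dpn (log2 change 1.50 ± 0.27 SE, adjusted p = 0.00016), without overlap, and the mitophagy receptor BNIP3L fell (log2 change -1.73 ± 0.23 SE, adjusted p = 6.9e-06).

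Several genes that charge transfer RNAs were higher, while few of the calls among ribosomal proteins were shared with the GAPDH-matched arrays. Of 22 synthetase genes 9 were higher and 2 lower (7 higher in both analyses). The seryl synthetase SARS had signals of 1322, 1439 and 1762 at 94 dpc and 2867, 7055 and 14556 at 1 dpn (log2 change 2.15 ± 0.27 SE, adjusted p = 3.3e-06, GAPDH-matched arrays 2.10) and the alanyl synthetase AARS 1577, 1628 and 1970 at 94 dpc and 2188, 4679 and 14574 at 1 dpn (log2 change 1.57 ± 0.30 SE, adjusted p = 0.00029, GAPDH-matched arrays 1.72). Of 64 cytosolic ribosomal proteins 27 were higher with all arrays but 3 in both analyses, and after quantile normalization 4 were higher and 23 lower. After median centring 40 were higher and 1 lower. RPS27L, a variant ribosomal protein induced by p53, had signals of 3915, 4571 and 5221 at 94 dpc and 11321, 16403 and 19043 at 1 dpn (log2 change 1.76 ± 0.16 SE, adjusted p = 4.6e-08) and was called in both. Of 42 initiation and elongation factors 8 were higher and 7 lower with all arrays. The counts were 4 and 3 in both analyses, and 12 and 4 on the GAPDH-matched arrays alone. After median centring 14 were higher and 5 lower, and after quantile normalization 7 and 11. Of 41 nucleolar assembly genes 5 were higher and 5 lower with all arrays and 3 and 0 in both analyses. The nucleolar calls differed between the array sets, with 9 higher and 0 lower on the GAPDH-matched arrays and 3 higher and 13 lower on replicates 2 to 5. After median centring 9 were higher and 1 lower, and after quantile normalization 8 and 2. Without fetal replicate 1, 5 or 6 the nucleolar count of changed genes was 6, 5 and 6. In the nucleolar list POLR1D was lower with all arrays (-1.42) but had the opposite sign on the GAPDH-matched arrays, where it was not called (log2 0.16, adjusted p = 0.69).

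Redox genes moved both ways. Of 46 antioxidant and metal defence genes 19 were higher and 13 lower (10 and 6 in both analyses, and 25 and 8 after median centring). SOD2, the superoxide dismutase of mitochondria, had signals of 811, 1181 and 1267 at 94 dpc and 3298, 8341 and 14280 at 1 dpn (log2 change 2.69 ± 0.28 SE, adjusted p = 3e-07, GAPDH-matched arrays 1.64). GSTA4, which detoxifies lipid aldehydes, had signals of 1334, 1522 and 1563 at 94 dpc and 225, 292 and 639.5 at 1 dpn (log2 change -2.17 ± 0.22 SE, adjusted p = 2.1e-07), and the metallothionein MT3 753, 977 and 1465 at 94 dpc and 31.6, 284 and 509 at 1 dpn (log2 change -1.98 ± 0.43 SE, adjusted p = 0.0011). Another GSTA4 probe set was not called (log2 -0.12). Of 24 genes of oxygen sensing 3 were higher and 6 lower (1 and 5 in both analyses, and 6 and 4 after median centring). The oxygen-regulated factor HIF1A fell from a median of 1176 to 428 (log2 change -1.27 ± 0.21 SE, adjusted p = 7.3e-05), as did its target carbonic anhydrase CA12 (log2 change -1.25 ± 0.20 SE, adjusted p = 6.7e-05).

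Of 17 macrophage genes 2 were higher and 3 lower, and 1 was lower in both analyses. SPI1 was higher with all arrays (1.78) but not on the GAPDH-matched arrays (log2 -0.16, adjusted p = 0.89) or without newborn replicate 2 (log2 1.54, adjusted p = 0.063) or 4 (log2 1.41, adjusted p = 0.069). Of 20 lymphocyte and neutrophil genes 13 had means below background at both stages. JCHAIN, the joining chain of secreted antibodies, rose from a median of 70.6 to 226 (log2 change 1.52 ± 0.32 SE, adjusted p = 0.00078). Of 19 antigen presentation genes 5 were lower and 1 higher (1 lower in both analyses), with the class II gene SLA-DQA1 at 1099, 1415 and 1618 at 94 dpc and 292, 439.6 and 839 at 1 dpn (log2 change -1.58 ± 0.26 SE, adjusted p = 7e-05). Of 38 cytokine and acute-phase genes 7 were lower and 3 higher (7 and 2 in both analyses, and 6 and 6 after median centring), with the chemokine CXCL14 at 1557, 1666 and 2019 at 94 dpc and 380.4, 593 and 683 at 1 dpn (log2 change -1.63 ± 0.25 SE, adjusted p = 3.1e-05) and IL18 at 647, 737 and 840 at 94 dpc and 108, 291 and 409 at 1 dpn (log2 change -1.44 ± 0.33 SE, adjusted p = 0.0017).

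Markers of blood, liver, pancreas and nerve were also measured in these muscles. Beta-globin, HBB, had signals of 399, 534 and 678 at 94 dpc and 131, 150.2 and 232 at 1 dpn (log2 change -1.58 ± 0.18 SE, adjusted p = 1.1e-06), and of 9 erythroid genes it was the 1 called, with 2 called when newborn replicate 3 was left out. Hepatocyte transcripts were uneven among fetuses: fetuin, AHSG, had signals of 172, 4927 and 21645 at 94 dpc and 155, 220.1 and 2610 at 1 dpn and SERPINA1 173, 2344 and 13814 at 94 dpc and 71.1, 153 and 463 at 1 dpn, with overlap between the stages for both, although both were called lower (adjusted p = 0.025 and 0.00097). Without newborn replicate 1, 2 or 5 or fetal replicate 1 or 4, AHSG was not called (log2 -2.80 to -2.46, against -2.99 with all, adjusted p = 0.051 to 0.071). It was not called with newborn replicates 2 to 5 only either (log2 -2.47, adjusted p = 0.11). APOA1, the apolipoprotein of high-density lipoprotein, had signals of 7056, 8211 and 12788 at 94 dpc and 1305, 2370 and 3308 at 1 dpn without overlap (log2 change -1.95 ± 0.22 SE, adjusted p = 9.8e-07). The 3 measured pancreas markers summed to 151 to 918 at 94 dpc and 141 to 11029 at 1 dpn, with overlapping ranges. Of 9 nerve and Schwann cell genes 3 were lower and 2 higher, with S100B at 763, 937 and 1102 at 94 dpc and 197, 279 and 600.3 at 1 dpn (log2 change -1.58 ± 0.20 SE, adjusted p = 3.4e-06). The Y-linked EIF1AY had signals of 685 to 798 in 3 fetuses and 385 and 686 in 2 newborns and was below background in the other 7 animals. The part of other tissues or of sex in the changes above was not tested.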

How the data were processed

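The deposited values are intensities, 1 signal per probe set and array, which the authors made with Affymetrix software (per the submitters' processing notes, GCOS 1.1.1). In the deposited table, each array's intensity values had a mean near 500 after trimming 2% at each end. Of 24123 probe sets, 124 array controls were left out and 23999 tested. Of these, 10069 carried 1 gene symbol (6765 genes), 198 several and 13732 none. Gene identifiers of 9961 were found in the RefSeq table used here and of 108 were not. Signals were used as deposited, and log2(signal + 16) was fitted with limma 3.58.1 in R 4.3.3 on all 22 arrays, with 1 mean per stage and Benjamini-Hochberg adjustment over all probe sets. The fit was tested on simulated data. Other stages enter only to share the estimate of the spread. A probe set counted as above background over 69.7, the 95th percentile of 23 control probe sets for RNA that is absent from the samples. Array weights used statmod 1.5.0, and summaries and figures used Python 3.11.15, numpy 2.4.6, pandas 2.3.3 and matplotlib 3.10.9.

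The comparison and the gene lists were chosen with earlier results of these data known, so the lists are described by counts and medians. Genes were named by a rule: the 15 largest rises and 15 largest falls that were called with all and with the GAPDH-matched arrays, did not overlap and had means above background, up to 8 genes each way on opposite sides of background, and up to 4 called members per list by size of change. In the isoform lists any member could be named. MYF5, MYOD1, MYF6, MEF2D, MYOM2, HES1, CDKN3, MGP, OXCT1, PPARGC1A, SLC2A4, PSME1, PSMD5, PSMG3, PDLIM5, GPRASP2 and B2M were named outside the rule, after their values were seen. The planned views of promoter and protein sequences were not run. Where all arrays of a stage were below background, "at least" folds set the mean log2(signal + 16) of the bright stage against the same measure of the background signal, 69.7. The number of arrays limits the precision. Some animals of a stage shared a mother, nothing in the labels shows which, and this was not modelled. The alternatives were other newborn array sets, the GAPDH ratio as covariate, array weights, other scalings, another pseudocount, a filter on dim probe sets, the 2 stages alone, a trended variance, another background and each animal left out.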

Additional observations from a re-analysis of the deposited data

Results flagged for a closer look

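In 39 named genes, the 6 animals of each stage were examined for 1 animal far from the other 5, by Dixon's test at the 5% level, which chance alone would pass in about 5% of groups. Of 78 such groups 4 held one. Asporin, ASPN, a proteoglycan of connective tissue, had its lowest newborn signal in 1 dpn replicate 1 (67.09), with the newborn median at 1096. TPPP3, which promotes tubulin assembly, was also lowest in that animal (79.12), with the newborn median at 379. For THY1, a surface protein of fibroblasts and nerve, 1 dpn replicate 5 was the highest newborn (61.29), still below background. For DCLK1, a microtubule-associated kinase, 94 dpc replicate 1 was the lowest fetus (142.7), with the fetal median at 219. The direction of all 4 changes was the same without these animals.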

How the results depend on the processing

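The number of called probe sets stayed within 1.5 times the reported 7836 under every alternative run. It was 6011 with the GAPDH ratio as covariate, 6101 with newborn replicates 1 and 6 only, 8666 with replicates 2 to 5 only, and 6927 to 8326 with 1 animal left out. The share that was higher depended on scaling, at 57.7% after median centring and 47.4% after quantile normalization against 33.5% as deposited. The number of probe sets on opposite sides of background at the 2 stages was 95. It was 336 with background at the highest absent control (182.8) and 103 to 146 with 1 animal left out, including 143, 146 and 144 without newborn replicates 1, 5 and 6. Because every array of both stages must meet the condition, leaving 1 out can only keep or raise this count. Of 259 named probe sets 186 kept their call and direction under every alternative. With replicates 1 and 6 only, the sign turned for FKBP1A (-0.057), POLR1D (0.16), EBNA1BP2 (0.49), SRSF9 (0.015) and SPI1 (-0.16), and with the GAPDH covariate for POLR1D (0.049) and EBNA1BP2 (0.46). EBNA1BP2 (log2 -1.22 with all arrays) was also not called when each of 9 animals was left out in turn, at log2 -1.24 to -0.86 (adjusted p = 0.051 to 0.1). The cause was not tested. Of 1587 recomputed counts of changed members in 69 gene lists 1482 stayed within 1.5 times the reported count. No paired analysis was possible because the replicate numbers only name the animals in order of deposit. Signals near the background of 69.7 give no reliable fold, and 3448 probe sets were below it on all 12 arrays.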

Other observations

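Some transcripts lay on opposite sides of background at the 2 stages. Of the 23999 probe sets, 76 were above background in every fetus and below it in every newborn, and 19 the other way. The testican SPOCK3, a secreted proteoglycan, had signals of 224, 289.7 and 523 at 94 dpc and 3.25, 34.1 and 68.6 at 1 dpn, at least 3.8-fold lower (adjusted p = 4.3e-06). PSIP1, a chromatin-binding coactivator, had signals of 94.3, 217 and 304 at 94 dpc and 18.1, 41.2 and 59.5 at 1 dpn, at least 2.56-fold lower. The tetraspanin TSPAN2 (at least 2.58-fold) and the kinase DCLK1 (at least 2.59-fold) fell likewise, and their medians stayed below background at 28 dpn (6.9 and 24.3) and 188 dpn (8.97 and 6.93). For PSIP1 the median at 28 dpn was 158, above background. The actin bundler FSCN1 (at least 4.63-fold) and THY1 (at least 3.6-fold) fell below background by dimmer probe sets (2 of FSCN1 and 1 of THY1), but the brightest probe set of each stayed above it. Another THY1 probe set, not the one that fell below background, was less stable. It was not called after median centring (log2 -1.50, adjusted p = 0.054) or without fetal replicate 5 (log2 -1.70, adjusted p = 0.051). Nor was it called with only the 2 stages in the fit (log2 -1.76, adjusted p = 0.079). RABGAP1, a regulator of vesicle traffic, rose from below to above background, at 20.4, 29.2 and 37.6 at 94 dpc and 126, 179.9 and 224 at 1 dpn, at least 2.28-fold higher (adjusted p = 8.2e-08).

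Growth arrest and purine genes changed in both directions, as did all named genes (17.3% higher and 23.8% lower). Of 20 genes of cell cycle inhibition and quiescence 7 were lower and 2 higher (5 and 2 in both analyses). Of 20 genes of purine nucleotides and creatine 5 were higher and 4 lower (3 and 2 in both analyses), near those percentages. The muscle adenylosuccinate synthase ADSSL1 rose with all arrays (log2 change 1.24 ± 0.26 SE, adjusted p = 0.00075) and was not called on the GAPDH-matched arrays (log2 0.39, adjusted p = 0.34). Of 21 immediate-early genes, which respond within minutes to stimuli and handling, 2 were higher and 1 lower, or 4 higher and 1 lower without newborn replicate 6 and 5 and 1 after median centring. Among 18 vascular peptide genes the natriuretic peptide NPPC was below background in every newborn (medians 179 at 94 dpc and 16.5 at 1 dpn, adjusted p = 0.00057), while AGT rose.

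Probe sets of 1 gene did not always move together. Of 517 named genes with at least 2 called probe sets, 435 moved in 1 direction and 82 in both. In 18 genes both directions were called with all and with the GAPDH-matched arrays. PDLIM5, a Z-disc scaffold protein, had a bright probe set that rose from a median of 6428 to 11924 (log2 1.12, adjusted p = 0.00018) and a dim one that fell from 286 to 104 (log2 -1.42, adjusted p = 0.00012). For GPRASP2, which sorts receptors, the probe sets changed by log2 -2.02 and 1.14. For B2M, the light chain of class I antigen-presenting molecules, 1 probe set rose from a median of 990 to 2151 and another fell from 732 to 369. Which transcripts or strands these probe sets measure was not examined.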
